A study of Mus musculus with 16 samples.

Results

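T-cell and intraepithelial lymphocyte genes were followed in RNA of EpCAM+ cells sorted from the distal colon of 16 adult mice. The set held 10 genes of the 22396 gene symbols in the deposited tables and was taken by symbol: *Cd3d*, *Cd3e*, *Cd3g*, *Cd2*, *Cd8a*, *Cd8b1*, *Gzma*, *Gzmb*, *Cd7* and *Itgae*. Each was represented by 1 listed transcript. Control mice were Tnfr2-f/f, and mice labelled knockout were Vil1::Cre;Tnfr2-f/f, so both carried the floxed *Tnfrsf1b* gene of TNFR2, and Cre was driven by the villin promoter, which is active in intestinal epithelium. There were 4 controls and 5 knockouts given water, and 3 controls and 4 knockouts given dextran sulfate sodium (DSS), which injures the colonic epithelium. By the labels, 3% DSS was given for 6 days and mice were dissected at day 12, whereas the study's text places the uninjured mice at day 0 and states that injured regions were taken after DSS, and its text gives a higher DSS concentration than the labels. In water, cage a held the 4 males and cage b the 5 females. The DSS-treated mice were all female, 2 in cage c and 5 in cage d, and no cage held both treatments, so treatment and cage cannot be told apart.

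Intraepithelial lymphocytes are T cells that lie between epithelial cells of the gut. Many carry the CD8 coreceptor and granzymes, and the integrin CD103 anchors them to E-cadherin on the epithelium. Their antigen receptor, made of alpha and beta or of gamma and delta chains, signals through the CD3 chains. Because such cells sit within the epithelium, they can be carried along when epithelial cells are isolated, and a sort on EpCAM is meant to leave them out. In bulk RNA, fewer cells of a type and less RNA per cell cannot be told apart.

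Epithelial genes were high in every library, and the T-cell label was borne out only weakly. Genes of other cells were high in water as well. There, 8 B-cell and plasma-cell genes summed to 486 to 14375 TPM and 8 macrophage and monocyte genes to 1164 to 2571 TPM. The 8 epithelial identity genes, among them *Epcam*, *Krt8* and *Vil1*, summed to between 5282 and 8855 transcripts per 1000000 transcripts (TPM) in every library. The 10 T-cell genes together reached a median of 19 TPM in water and 1.39 TPM after DSS. *Cd8a* was listed at 0 in 14 of 16 libraries, and *Cd3e*, the defining chain of T cells, did not exceed 2.15 TPM. *Lck*, the kinase that starts receptor signalling, was at 0 in 8 of 9 water and 3 of 7 DSS libraries and did not exceed 1.3e-08 TPM in the others. Only 11.8% of the short sequence runs in its 2 listed transcripts are absent from its 6 other annotated transcripts. Reads of *Lck* could thus have been placed on transcripts not analysed here, so these values do not show that it was absent. *Tnfrsf1b*, the targeted gene, ranged from 9.23 to 27.0 TPM and overlapped between genotypes in both treatments, so the libraries are called by their genotype label only. TPM of whole transcripts does not show the state of the floxed exon. The study itself reports reduced TNFR2 in EpCAM+ cells of such knockouts by flow cytometry and by qPCR. TPM of genes with several transcripts cover only the isoforms in the tables.

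The values rest on few reads. Low TPM fell on equally spaced steps once each was multiplied by the transcript length less 199 bases, the offset that placed by far the most transcripts (7396 library values, against 657 for the next best offset) on a single commonest step. Taking that step as 1 read gave 1497100 to 5574950 reads on listed transcripts in water libraries and 3345315 to 7216524 in DSS libraries. Only 1 water library, water control 1, had more than 1878101. The DSS libraries were thus deeper than 8 of the 9 water libraries. The authors' tables also give a mean natural log of estimated counts per transcript, from which the same mean of these reads differed by a median of -0.01 in both tables. Levels in these reads are given as reads per 1000000 recovered reads (RPM). The 10 genes together took 28.5 to 240.0 reads in a water library and 5.09 to 45.4 in a DSS library. These are estimates from rounded values. Besides counting error they carry the division of reads between transcripts, the offset of 199 bases and the spread between mice. Of 95 values of the 10 genes above 0, 59 came within 0.02 of a whole number.

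**Figure D1:**
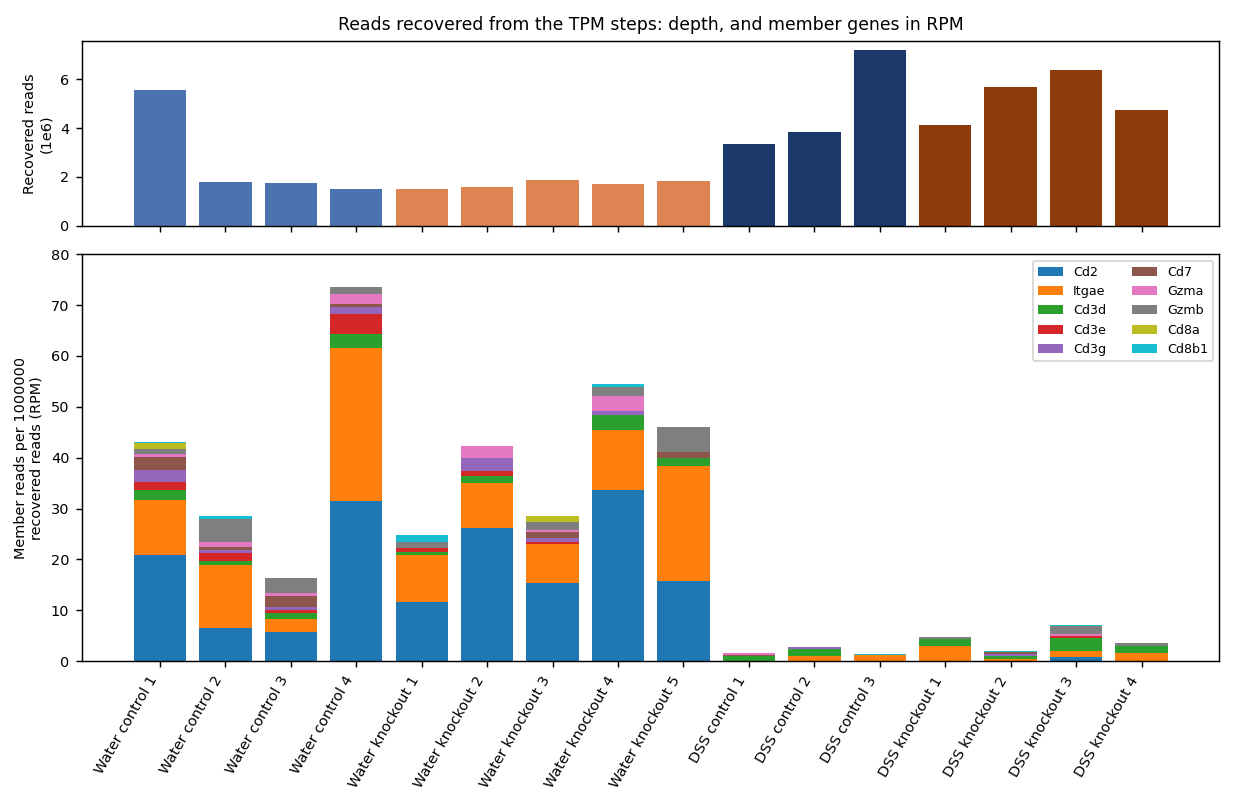
Upper bars give the reads recovered in each library, in units of 1000000, and lower bars give the 10 T-cell genes in RPM, stacked by gene. The stacks reach 16.3 to 73.6 RPM in water and 1.39 to 7.11 after DSS, although the DSS libraries hold more reads than all water libraries but water control 1.

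The CD3 chains form the signalling part of the T-cell receptor. Their genes lie together on mouse chromosome 9 (GRCm38). *Cd3g* (chr9:44969572-44980431, minus strand, 7 exons in the listed transcript) and *Cd3d* (chr9:44981786-44987339, plus strand, 5 exons) point away from each other, with starts 1355 bases apart. *Cd3e* (chr9:44998740-45009627, minus strand, 8 exons) starts 27841 bases beyond *Cd3d*. All are protein-coding. The 250 bases before each RefSeq start are shown because the 3 genes encode chains of the same complex. Any link between these sequences and the reads of the 3 genes was not tested. Capitals mark CAGGTG, the core of E2A sites, and AGGAAG, the core of many ETS sites, on either strand; no TGTGGT, a RUNX core, was found in these 3 windows. The sequences are RefSeq's on GRCm38.p6, which held a window for 6 of the 10 genes. The RefSeq start of *Cd3e* lies inside the gene model positioned above, so its window holds the first bases of that model.
Cd3g (chr9:44980432-44980681, minus strand): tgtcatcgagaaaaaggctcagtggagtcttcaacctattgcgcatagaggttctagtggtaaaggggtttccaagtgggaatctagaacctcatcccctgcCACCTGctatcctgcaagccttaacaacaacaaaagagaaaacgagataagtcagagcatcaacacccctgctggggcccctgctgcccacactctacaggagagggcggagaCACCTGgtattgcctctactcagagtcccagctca
Cd3d (chr9:44981536-44981785, plus strand): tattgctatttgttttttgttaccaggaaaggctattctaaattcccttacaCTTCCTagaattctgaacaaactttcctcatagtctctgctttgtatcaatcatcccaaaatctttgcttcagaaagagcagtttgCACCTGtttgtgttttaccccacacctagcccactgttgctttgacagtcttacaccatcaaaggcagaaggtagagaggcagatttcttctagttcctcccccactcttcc
Cd3e (chr9:45009612-45009861, minus strand): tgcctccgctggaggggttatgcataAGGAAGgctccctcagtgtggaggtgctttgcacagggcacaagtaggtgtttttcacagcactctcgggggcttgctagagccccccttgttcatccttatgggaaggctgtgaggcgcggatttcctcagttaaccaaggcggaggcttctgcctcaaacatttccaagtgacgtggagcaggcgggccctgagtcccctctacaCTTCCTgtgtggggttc
Over all 32851 promoter windows of this length, 17.2% held CAGGTG, 29.5% held AGGAAG and 14% held TGTGGT. A match is a run of letters and not a measured binding site.

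*Cd3e* was above 0 in all 4 water controls, at 0.838, 0.817, 0.309 and 2.15 TPM in replicates 1 to 4. In the water knockouts it was listed at 0.345, 0.459 and 0.278 TPM in replicates 1 to 3 and at 0 in replicates 4 and 5. After DSS it was at 0 in 5 of 7 libraries, with 0.0931 TPM in control 3 and 0.21 TPM in knockout 3. The 2 genotypes overlapped in water, because the lowest control lay below the 2 highest knockouts. In reads, the water controls summed to 19 and the water knockouts to 3.34.

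*Cd3g* was above 0 in 7 of 9 water libraries, with 1.97, 0.364, 0.473 and 1.1 TPM in controls and 0, 2.11, 0.575, 0.67 and 0 TPM in the knockouts. After DSS it was above 0 in control 2 (0.259 TPM) and knockout 2 (0.523 TPM) and at 0 in the other 5. Water libraries of both genotypes therefore spanned most of its range.

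*Cd3d* did not share this pattern. In water it was at 0.875, 0.305, 0.55 and 1.28 TPM in controls and 0.307, 0.751, 0, 1.44 and 0.755 TPM in the knockouts. After DSS its levels were 0.54, 0.863 and 0.00706 TPM in controls and 0.747, 0.284, 1.58 and 0.765 TPM in the knockouts. The 4 groups overlapped, and the highest value of all was in DSS knockout 3. *Cd3d* made up 38.5% of the 76.0 CD3 reads in water and 85.4% of the 47.8 CD3 reads after DSS, where *Cd3e* gave 3.00 reads and *Cd3g* 4.00. Its reads after DSS were not whole numbers in 7 of 7 libraries, which can happen when reads match several transcripts and are divided. After DSS *Cd3e* and *Cd3g* were each whole in the 2 libraries above 0. In water, values were not whole in 3 of 8 libraries above 0 for *Cd3d*, 1 of 7 for *Cd3e* and 4 of 7 for *Cd3g*. In the listed transcript of *Cd3d*, 65 of 1577 runs of 31 bases, all between bases 1049 and 1283, also occur in transcripts of 1324 other genes. *Cd3g* shared none with another gene, and *Cd3e* shared 106 of 1432, with 1 other gene. What shared runs contribute to the values of these genes was not tested.

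**Figure D2:**
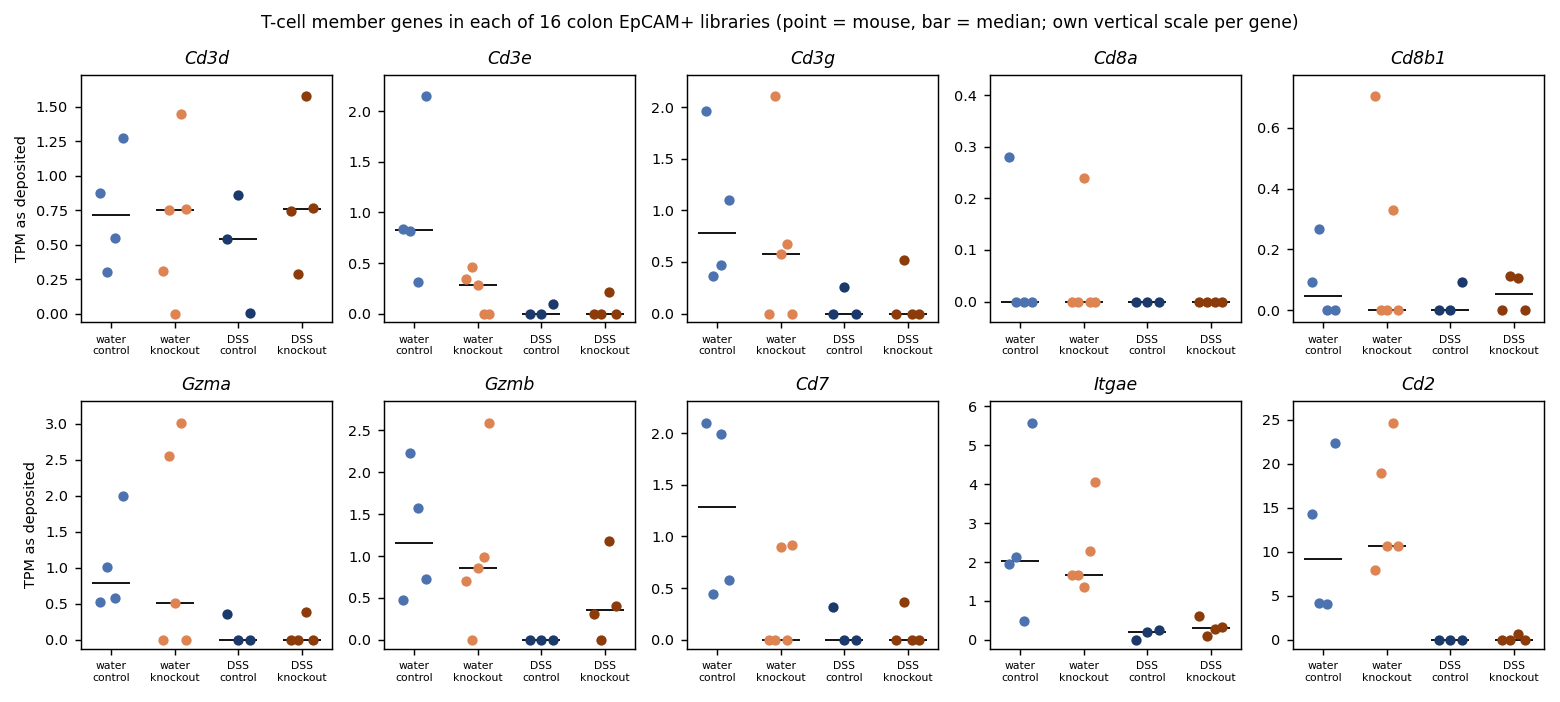
Each point is the TPM of a T-cell gene in 1 mouse, bars are group medians over 4 water controls, 5 water knockouts, 3 DSS controls and 4 DSS knockouts, and each gene has its own vertical scale. *Cd2* and *Itgae* lie lower in every DSS library than in the water libraries of the same genotype, and the ranges of *Cd3d* overlap between all 4 groups.

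The receptor chains were likewise low in water and under 1 TPM in the DSS libraries. *Trac*, the constant gene of the alpha chain, was at 3.30, 1.61, 1.82 and 1.84 TPM in the water controls and 2.04, 4.06, 4.93, 1.91 and 3.33 TPM in the water knockouts. It was at 0 in the 3 DSS controls and between 0.18 and 0.671 TPM in the DSS knockouts. *Trbc2*, a beta chain gene, reached 6.84 TPM but was at 0 in 3 water and 4 DSS libraries, and *Trbc1* was at 0 in 6 water and 6 DSS libraries. *Trdc*, the delta chain gene, stayed at or below 0.48 TPM in water and 0.525 TPM after DSS. Of the gamma chain genes, *Tcrg-C1* reached 1.69 TPM, *Tcrg-C2* 1.27 TPM and *Tcrg-C4* 0.552 TPM in water. After DSS *Tcrg-C1* and *Tcrg-C4* were at 0 in 7 of 7 libraries.

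CD8 is the coreceptor of cytotoxic T cells and is carried as an alpha homodimer by many intraepithelial lymphocytes. *Cd8a* (chr6:71373427-71379173, plus strand) was at 0.281 TPM in water control 1, which corresponds to 7.00 reads in the deepest water library, and at 0.24 TPM or 2.00 reads in water knockout 3. It was at 0 in every other library, including all 7 DSS libraries. Only 3.91% of the 31-base runs of its listed transcript are absent from its 2 other annotated transcripts, so reads could also have been placed on transcripts not analysed here. *Cd8b1* (chr6:71322788-71337494, plus strand), the beta chain, was above 0 in 4 of 9 water libraries (0.092 to 0.705 TPM) and in 3 of 7 DSS libraries (0.0926 to 0.114 TPM), with at most 2.08 reads in any of them. In its listed transcript, 122 of 1453 runs of 31 bases also occur in transcripts of 1532 other genes, and their part in these values was not tested. No library held both CD8 chains at 0.1 TPM or more, so their ratio could not be formed.

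Granzymes are serine proteases that cytotoxic lymphocytes release into target cells. *Gzma* (chr13:113093825-113100981, minus strand) was at 0.519, 1.01, 0.575 and 2.00 TPM in the water controls and at 0, 2.56, 0.518, 3.02 and 0 TPM in the water knockouts. In DSS libraries it was above 0 only in control 1 (0.365 TPM) and knockout 3 (0.39 TPM). The genotypes overlapped, and water knockouts held both the highest values and the values at 0.

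*Gzmb* (chr14:56258838-56262260, minus strand) was at 0.475, 2.23, 1.58 and 0.732 TPM in the water controls and 0.704, 0, 0.853, 0.993 and 2.59 TPM in the water knockouts. After DSS the 3 controls were at 0, and the knockouts were at 0.305, 0, 1.18 and 0.399 TPM. In reads this was 0 in the DSS controls, which with a floor of 3 reads over the group is at least 9.04-fold below the water controls, and 16 in the DSS knockouts, of which knockout 3 gave 11. The exact permutation p for the DSS genotypes was 0.143 (two-sided, n = 3 and 4).

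*Cd7* and *Cd2* encode surface proteins of lymphocytes. *Cd7* (chr11:121036747-121039418, minus strand), a costimulatory receptor of T and natural killer cells, was at 2.10, 0.44, 1.99 and 0.578 TPM in the water controls. In the water knockouts it was at 0.898 TPM in replicate 3, 0.914 TPM in replicate 5 and 0 in the other 3. After DSS it was above 0 only in control 1 (0.317 TPM) and knockout 2 (0.367 TPM).

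*Cd2* (chr3:101275899-101287939, minus strand, 5 exons), an adhesion receptor for CD48 that in the mouse is carried by B cells as well as T cells, stood apart from the other genes. It was at 14.3, 4.18, 4.09 and 22.4 TPM in the water controls and at 7.94, 18.9, 10.7, 24.7 and 10.7 TPM in the water knockouts. It thus made up 35.6% to 73.9% (median 62.5%) of the summed TPM of the 10 genes in a water library and reached the 67.3rd to 90.1st percentile of all genes there. In DSS mice it was listed at 0 in 6 of 7 libraries and at 0.694 TPM in knockout 3. In reads, the 3 DSS controls had 0 of 14395278, against 184.5 of 10619494 in the water controls, which with a floor of 3 reads over the group is at least 83.4-fold lower in RPM. The DSS knockouts had 5.00 of 20884377 and the water knockouts 174.1 of 8516553, so that water exceeded DSS by 85.4-fold.

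*Itgae* (chr11:73090583-73147446, plus strand, 31 exons) encodes CD103, the alpha E integrin chain, which with the beta 7 integrin binds E-cadherin and is also carried by dendritic cells of the gut. It was at 1.96, 2.12, 0.477 and 5.59 TPM in the water controls and 1.67, 1.67, 1.36, 2.28 and 4.05 TPM in the water knockouts. After DSS it was at 0, 0.21 and 0.255 TPM in controls and 0.62, 0.102, 0.272 and 0.33 TPM in the knockouts. It was the only gene of the set besides *Cd3d* that stayed above 0 in most DSS libraries, in 6 of 7. In RPM, water exceeded DSS by 15.6-fold in controls and 8.66-fold in knockouts.

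The first comparison asked whether the levels differed by genotype in water. No T-cell gene was called by limma on log2(TPM + 1) at a Benjamini-Hochberg adjusted p under 0.05, and 0 had an unadjusted p under 0.05. Over all genes tested, 0.00905% were called (1 of 11046). Only *Cd2*, *Gzma*, *Gzmb* and *Itgae* reached the mean of 1 TPM needed for testing, and they showed log2 differences (knockout minus control) of 0.55 ± 0.51 (SE), -0.08 ± 0.49, -0.20 ± 0.39 and 0.00 ± 0.41. The adjusted p of *Cd2* was 0.867. Without the filter on low values all 10 genes were fitted, and *Cd3e* was lower in the knockouts by -0.68 ± 0.24 with an unadjusted p of 0.022 and an adjusted p of 0.86. Its exact permutation p was 0.0238 (two-sided, n = 4 and 5, unadjusted), the only 1 of 10 below 0.05, and the smallest p this design allows is 0.00794. The genotypes overlapped for 10 of 10 genes in water, where 1.28% of all genes above 0 did not overlap.

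After DSS the same comparison could not be made by the model, because 0 of the 10 genes reached a mean of 1 TPM. The background of calls there was 0.00918% (1 of 10899). Exact permutation p over the 10 genes ran from 0.143 to 1 (two-sided, unadjusted, n = 3 and 4), and the smallest possible p is 0.0286. Fitted without the filter, the 9 genes above 0 in any DSS library gave 0 calls. The genotypes overlapped for all 9, where 3.5% of all genes above 0 after DSS did not overlap. DSS knockout 3 held the highest value of 5 of these 9 genes, and it also held 440.6 TPM of *Jchain*, the joining chain of secreted antibodies, against 5.18 to 70.5 TPM in the other DSS libraries.

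The second comparison set DSS against water within each genotype. Because the tables were scaled separately by the authors, it was made on TPM rescaled across the 16 libraries by median-of-ratios factors and carried no test. In the controls, 2 of 10 genes had a mean of 1 rescaled TPM or more, *Cd2* and *Itgae*, and every DSS library lay below every water library for both. This held for 14.2% of all genes past the same filter. In the knockouts the same 2 genes passed and both lay below, against 18.1% of all genes. The mean was taken over DSS and water together, and both genes passed through water alone. After DSS *Cd2* and *Itgae* did not exceed 0 and 0.206 rescaled TPM in controls and 0.588 and 0.521 in knockouts. Their lower place after DSS was thus in large part set by the filter, and the shares over all genes are no like comparison. The mean log2(rescaled TPM + 1) of *Cd2* was lower after DSS by -3.41 in controls and -3.79 in knockouts. For *Itgae* the differences were -1.53 and -1.36. The rescaling left a median shift over all genes of 0.01 in controls and -0.00 in knockouts, against 0.32 and 0.31 for TPM as deposited. Without water control 4, only *Cd2* passed the filter in the controls. Without any filter, 7 of the 10 genes lay below in the controls, where 10.9% of all genes did, and 2 of 10 in the knockouts, where 12.6% did. The exceptions in the controls were *Cd3d*, *Cd8a* and *Cd8b1*.

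Other genes of T cells were taken from 5 lists, 75 listed genes in all. In the controls, 28 passed the filter, of which 18 lay lower in every DSS library than in every water library and 1 higher, where 14.2% of all genes lay lower and 10.6% higher. In the knockouts, 25 passed, 17 lay lower and 2 higher, where 18.1% of all genes lay lower and 17.4% higher. These shares are also the background of the counts by list that follow. The filter again took the mean over both treatments, so genes such as *Cd4* and *Itgb7* passed through water alone. After DSS they did not exceed 0.279 and 0.703 rescaled TPM, and for such genes the shares are no like comparison. Those higher were *Bcl11b*, a transcription factor of T-cell development, in both genotypes and *Itga1*, an integrin that binds collagen, in the knockouts. By genotype, 29 of the 75 were tested in water and 13 after DSS, with 0 calls in each, and 3 had an unadjusted p under 0.05 in water and 0 after DSS.

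Among the surface and signalling genes, 8 of 9 past the filter lay lower after DSS in controls and 7 of 8 in knockouts. *Il2rg*, the chain shared by several cytokine receptors, had medians of 23.5 TPM in water and 1.28 TPM after DSS. *Ctla4*, an inhibitory receptor of T cells, had medians of 12.6 and 0.226 TPM, and *Cd4*, the helper coreceptor that macrophages and dendritic cells can also carry, 7.11 and 0.197 TPM. *Fyb*, an adaptor of T and myeloid cells, had 11 and 4.03 TPM. In water, *Cd4* was therefore above *Cd8a* in 9 of 9 libraries, both per length.

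Among the homing and retention genes, 5 of 8 lay lower after DSS in each genotype. *Itgb7*, the partner chain of CD103, had medians of 11 TPM in water and 0.189 TPM after DSS. *Ccr7*, the receptor that guides cells to lymph nodes, had 5.99 and 0.24 TPM, *Itga4*, the other partner of the beta 7 integrin, 5.07 and 0.877 TPM, and *S1pr1* 4.08 and 2.02 TPM. Of the transcription factors, 2 of 6 lay lower in controls and 3 of 5 in knockouts. *Zbtb7b* (medians of 35.7 TPM in water and 23.5 TPM after DSS) and *Tcf7* (2.26 and 3.30 TPM) had medians above 1 TPM after DSS, and *Bcl11b* had 1.23 and 2.81 TPM. On the rescaled log2 scale *Tcf7* differed between DSS and water by -0.076 in controls and 0.028 in knockouts and overlapped in both, and *Bcl11b* differed by 0.48 and 0.77. Of the cytotoxic and natural killer receptor genes, 2 of 3 lay lower in controls and 1 of 2 in knockouts. *Ccl5*, a chemokine of effector T cells, had medians of 4.22 TPM in water and 1.28 TPM after DSS and overlapped between the treatments.

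**Figure D3:**
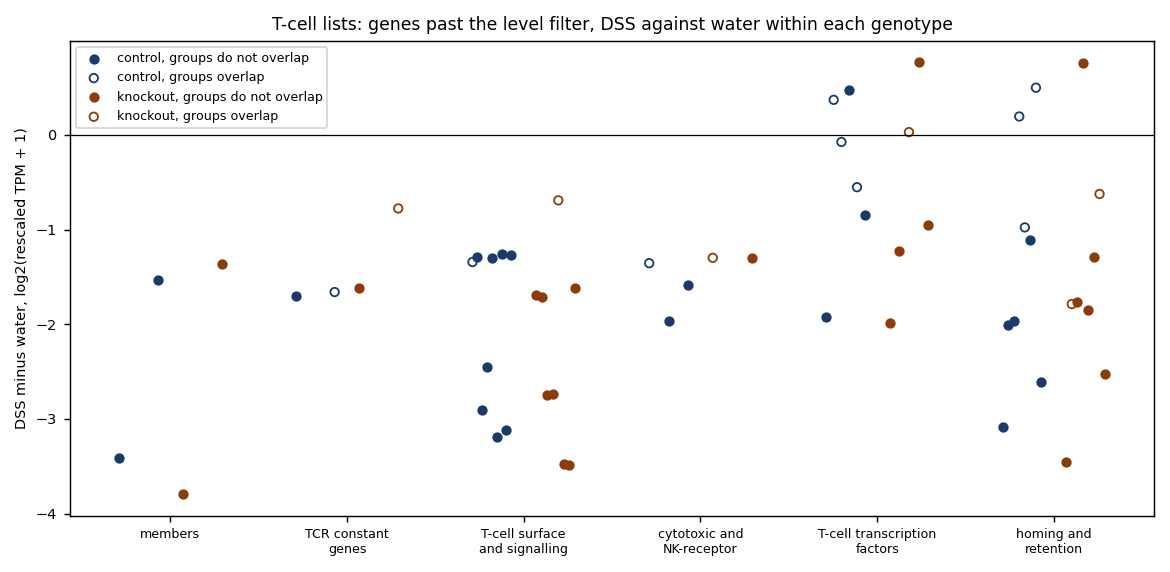
Points are genes past the mean of 1 rescaled TPM, the vertical axis is the DSS minus water difference in mean log2(rescaled TPM + 1), and filled points mark genes whose DSS and water libraries do not overlap. The 2 member genes, *Cd2* and *Itgae*, lie at -3.41 and -1.53 in controls and -3.79 and -1.36 in knockouts. *Itgae* is within the range of the surface, signalling and homing genes. *Cd2* is below the lowest of them, *Ctla4* at -3.19 in controls and *Il2rg* at -3.49 in knockouts. The transcription factors lie on both sides of 0.

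On the side of the epithelium, *Cdh1*, which encodes the E-cadherin bound by CD103, had medians of 188 TPM in water and 282 TPM after DSS. *Il18*, a cytokine made by colonocytes, had 86.4 and 96.8 TPM, *Ccl28*, a mucosal chemokine, 29.7 and 43.3 TPM, and *Cxcl16*, the ligand of CXCR6, 17.7 and 8.58 TPM. These are TPM of tables scaled separately. On the rescaled log2 scale the DSS minus water differences in controls and knockouts were 0.16 and 0.30 for *Cdh1*, -0.24 and -0.14 for *Il18*, 0.23 and 0.055 for *Ccl28* and -1.55 and -1.08 for *Cxcl16*. The treatments overlapped in both genotypes for *Il18* and *Ccl28*, for *Cdh1* in the controls and for *Cxcl16* in the knockouts. Of the 15 genes of this list, 11 were tested by genotype in water and 12 after DSS, with 0 calls. In controls, 2 of 10 lay lower after DSS and 1 higher, against 14.2% and 10.6% of all genes. In knockouts 0 of 11 lay lower and 1 higher, against 18.1% and 17.4%.

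Markers of other leukocytes moved with the T-cell genes. The 8 macrophage and monocyte genes summed to 1164 to 2571 TPM in water and 18.1 to 62.9 TPM after DSS, with *Lyz2*, *C1qa*, *C1qb* and *C1qc* the highest. The 8 B-cell and plasma-cell genes summed to 486 to 14375 TPM in water and 8.44 to 465 TPM after DSS, and the 7 dendritic-cell genes to 8.29 to 42.4 and 0.48 to 1.58 TPM. The summed neutrophil genes went the other way, with 33.2 to 84.6 TPM in water and 90.6 to 1920 TPM after DSS. *S100a8* and *S100a9* lay higher in every DSS library than in every water library of the same genotype. *Ly6g* and *Csf3r* overlapped, with rescaled log2 differences of -0.12 and -0.16 in controls and -0.54 and -0.51 in knockouts. *Cxcr2* differed by 0.68 in controls, where it overlapped, and by 0.99 in knockouts, where it was under the filter. With the genotypes pooled, fibroblast and endothelial lists overlapped between treatments (209 to 746 and 107 to 504 TPM, and 13.8 to 42.4 and 16.3 to 42.9 TPM). Within the controls the fibroblast sums did not overlap, at 437 to 746 TPM in water and 107 to 396 TPM after DSS. There, 3 of 6 fibroblast genes lay lower in every DSS library than in every water library. In the knockouts the fibroblast sums overlapped (209 to 609 and 108 to 504 TPM), and 0 of 6 genes lay lower. Of these lists, mast cells (3.95 to 19.3 and 0.697 to 24.6 TPM) and innate lymphoid cells (130.5 to 252 and 189 to 375 TPM, nearly all *Areg*) overlapped as well. The part of other cell types in the T-cell values was not tested.

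**Figure D4:**
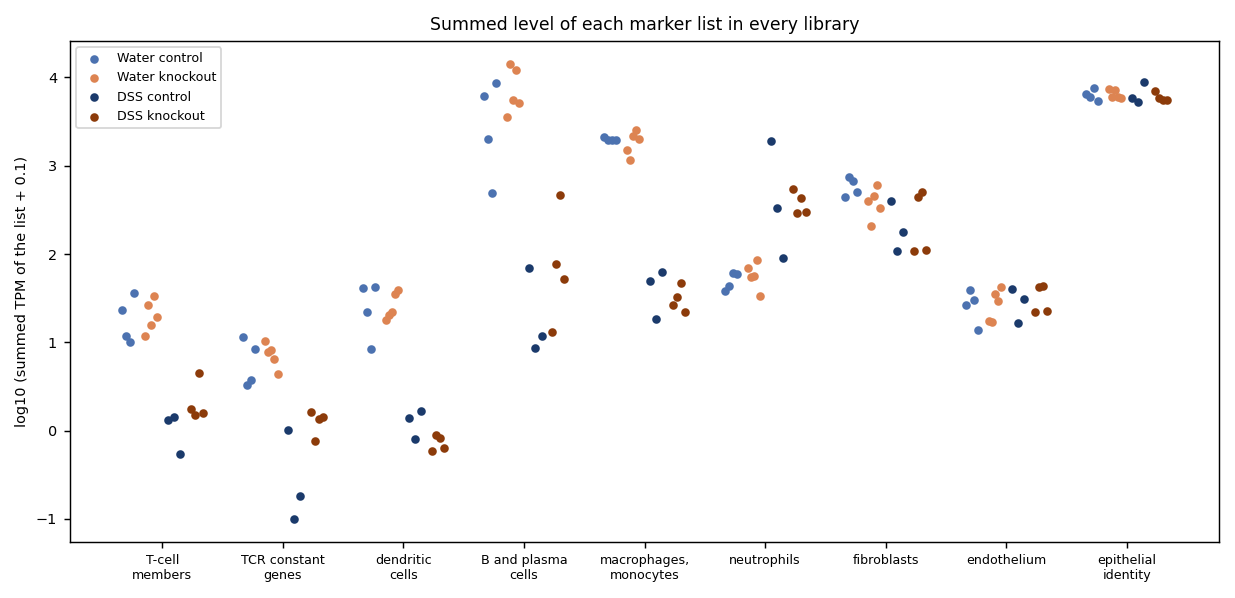
Each point is the summed TPM of a marker list in 1 library, as log10 of the sum plus 0.1. The T-cell, T-cell receptor, dendritic, B and plasma cell and macrophage sums are separate between water and DSS libraries, neutrophil sums are higher after DSS, and epithelial identity genes stay between 5282 and 8855 TPM.

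Across the 9 water mice, *Cd2* and *Itgae*, the genes past the filter in the second comparison, were set against 5 marker lists. *Cd2* rose with the mean level of the B-cell and plasma-cell genes, with Pearson's r = 0.90 (exact permutation p = 9.9e-05, adjusted p = 0.000992 over 10 relations) and Spearman's rho = 0.933 (exact p = 0.00075, adjusted p = 0.0075). Without the 2 mice farthest from the median of the list, r was 0.897, and with each value centred on its cage it was 0.896. With the T-cell receptor constant genes, r was 0.623 (exact permutation p = 0.0748, adjusted p = 0.187) and rho 0.383 (exact p = 0.312, adjusted p = 0.624). That r was 0.571 without the 2 mice farthest from the median of this list, and 0.78 within cages. The receptor genes summed to only 3.17 to 11.3 TPM in water, so their mean level rests on few reads. With the macrophage genes r was -0.01. The difference between these correlations was not tested.

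*Itgae* rose with the dendritic-cell genes, with r = 0.861 (exact permutation p = 0.000931, adjusted p = 0.00466) and rho = 0.90 (exact p = 0.00203, adjusted p = 0.0101), with r = 0.687 without the 2 farthest mice and 0.827 within cages. Its r with the B-cell and plasma-cell genes was 0.571 (exact permutation p = 0.12, adjusted p = 0.239), and with the T-cell receptor constant genes 0.034 (exact permutation p = 0.935). These were 0.039 and 0.088 without the 2 farthest mice, and 0.57 and 0.372 within cages. *Cd2* was also related to the dendritic-cell genes, at r = 0.772 (exact permutation p = 0.0144, adjusted p = 0.0481), which fell to 0.571 without the 2 farthest mice, and at rho = 0.85 (exact p = 0.00607, adjusted p = 0.0202). The lists share each library's depth and composition with the genes, and they were chosen with the values known.

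**Figure D5:**
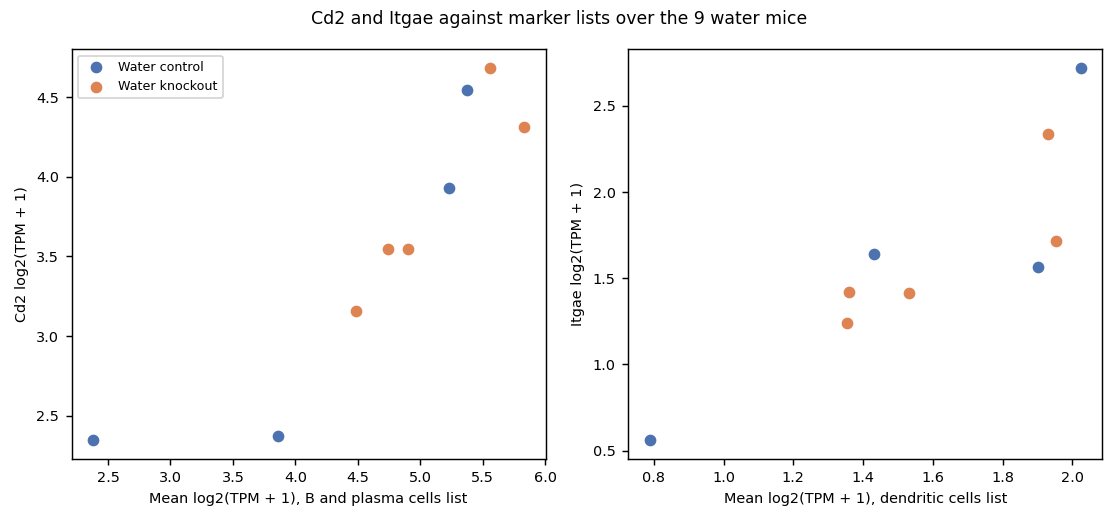
Left, *Cd2* against the mean of the B-cell and plasma-cell genes, and right, *Itgae* against the mean of the dendritic-cell genes, as log2(TPM + 1) in the 4 water controls and 5 water knockouts. Water control 3 is lowest on all 4 axes, and the genotypes overlap on each.

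The genes whose pattern over the 9 water mice was most like the mean log2(TPM + 1) of the 10 T-cell genes were *Ap3m2*, *Dock2*, *Plxnc1*, *Ahr*, *Ero1lb*, *Arhgap30*, *Ireb2*, *H2-M3*, *Trappc12* and *Tuba1a*, with Pearson's r between 0.93 and 0.888 among 11042 genes. Of the T-cell lists, 1 of 9 surface and signalling genes and 1 of 9 homing genes were among the 100 most alike, and 0 of 7 B-cell and plasma-cell genes. The 100 also held 2 of 6 general leukocyte genes and 1 of 11 genes of the epithelial side. For *Cd2* alone, *Gimap4*, *Ikzf3* and *Trp53inp1* came first (r = 0.97, 0.969 and 0.966), and 4 of the 7 B-cell and plasma-cell genes were among the 100 most alike. So were 2 of 9 surface and signalling genes, 1 of 9 homing genes and 2 of 6 general leukocyte genes. For *Itgae* alone, *Fgd3*, *Il10ra* and *Flt3*, a receptor of dendritic-cell precursors, came first (r = 0.955, 0.954 and 0.946), with 2 of 4 dendritic-cell genes among the 100. These also held 1 of 9 surface and signalling genes, 1 of 9 homing genes and 1 of 11 genes of the epithelial side. The profiles of *Cd2* and *Itgae* alone were added after the values were seen.

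Ratios between T-cell genes within a library do not depend on how the tables were scaled, but few could be formed. With both genes at 0.5 TPM or more, log2 *Itgae*/*Cd3e* was 1.37 in the median of 3 water controls (SD 0.085), and log2 *Gzma*/*Cd3e* was -0.10 (SD 0.50). *Gzmb*/*Cd3e* could be formed in 2 water controls and was -1.55 and 1.45. No ratio could be formed in a water knockout or a DSS library. At 0.1 TPM, log2 *Itgae*/*Cd3e* was 1.30 in the 4 water controls (SD 0.36) and 2.28 in 3 water knockouts (SD 0.25). The ratio *Gzma*/*Cd3e* took the same log2 value of 0.90 in water control 3, water knockout 3 and DSS knockout 3, which hold equal reads of both genes, so single reads set these ratios.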

How the data were processed

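RNA of sorted EpCAM+ distal colon cells was sequenced from 16 mice as stranded polyA libraries read from 1 end over 75 bases. Groups, replicates, cages and sexes were taken from the labels. The authors deposited TPM from kallisto for each transcript and mouse in 2 tables, scaled separately by sleuth, and the authors' mean natural log of estimated counts; mm10 is named in the submitters' processing notes. The deposited p-values, q-values and ratios of the authors' own comparisons were not used. From the values, only APPRIS principal transcripts were listed (28988 after 385 repeated lines were dropped), and the TPM of a mouse summed to between 487469 and 861109. TPM was summed by gene symbol. Genotypes were compared within a table with limma (version 3.58.1, R 4.3.3), using log2(TPM + 1), a mean-variance trend and a minimum mean of 1 TPM, and the script was tested on simulated data. No test was run between the tables. Reads were recovered by treating the commonest value of TPM times (length minus 199) in a library as 1 read, for 27524 transcripts longer than 299 bases. Of 95 member values above 0, 59 came within 0.02 of a whole number. Lengths and positions were from GENCODE M21 (GRCm38), where 10 of 10 member transcripts had the same version. Shared 31-base runs were counted on both strands. Python 3.11.15, pandas 2.3.3 and scipy 1.17.1 were used. The members and gene lists were chosen with earlier results of these data known. The genes named were the members, the T-cell receptor constant genes, up to 4 genes of highest mean TPM in each other list, *Tnfrsf1b* and the 10 genes most alike the members, and any other was chosen after its values were seen. Alternatives were another pseudocount, other filters and scalings, cage, a replicate block, leaving out each mouse, ranks, the ratio to *Epcam*, and, added after seeing the data, recovered reads. Where nothing states that replicates were separate litters, p-values measure the spread between these mice only.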

Additional observations from a re-analysis of the deposited data

Results flagged for a closer look

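In 7 of 29 sets of values of a T-cell gene within a group of 4 or 5 mice, 1 library lay far from the others by Dixon's criterion. In all 7 the other libraries of the group were at 0, where any single value above 0 meets the criterion, so the usual chance of about 1 set in 20 does not apply and the number of sets is no measure of outliers. Among the DSS knockouts, knockout 3 stood apart in *Cd3e* (0.21 TPM), *Cd2* (0.694 TPM) and *Gzma* (0.39 TPM), and knockout 2 in *Cd3g* (0.523 TPM) and *Cd7* (0.367 TPM). For *Cd8a* it was water control 1 (0.281 TPM) and water knockout 3 (0.24 TPM). In recovered reads these values were 2.00, 5.00, 2.00, 3.00, 2.00, 7.00 and 2.00, in the order given.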

How the results depend on the processing

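The count of T-cell genes called by genotype was 0 under all alternatives run in both treatments, including each omission of 1 mouse (range 0 to 0). After DSS no member was tested under any of these except without the filter on low values, so the 0 there was fixed by the filter and says nothing about stability. The lowest adjusted p of a member was 0.774 in water over the alternatives, and 0.981 after DSS without the filter. Over all genes, the 1 call in water became 0 with a pseudocount of 0.1, with a mean of at least 5 TPM and with the replicate block, 4 without a filter and 1 to 2 without single mice. The 1 call after DSS became 0 with a pseudocount of 0.1, without a filter and with the block, and 0 to 3 without single mice. Same-numbered mice did not deviate together (mean r 0.035 over 4 pairs in water and -0.13 over 3 pairs after DSS). The replicate block left 623 genes in water and 169 after DSS at an unadjusted p under 0.05; it gives no weight to a mouse whose number is not shared. Under the block the log2 difference of *Gzma* was 0.15 and that of *Itgae* -0.17. *Itgae* was -0.13 with libraries scaled to the same sum and -0.067 with cage as a covariate. Without single mice, the differences ranged from -0.20 to 0.15 for *Gzma*, from -0.38 to 0.023 for *Gzmb*, from -0.35 to 0.37 for *Itgae* and from 0.23 to 0.97 for *Cd2*. The count of members lower after DSS in controls was 2 under 5 other scales and 7 without a filter, and 1 to 2 without single mice; in knockouts it was 2 under all alternatives.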

Other observations

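Of the 75 listed genes of the 5 T-cell lists, 69 were above 0 in a water library, and 4 of these did not overlap between the genotypes in water, against 1.28% of all genes above 0 there; none was called, and they are named after their values were seen. *Klrd1*, the CD94 chain of natural killer receptors, was at 2.31, 1.98, 0.56 and 3.25 TPM in the 4 water controls and at 0 in the 5 water knockouts (exact two-sided permutation p = 0.00794, the smallest this design can give, unadjusted). It was under the filter of 1 TPM, rested on 23.6 reads in the controls, and only 0.578% of the 31-base runs of its listed transcript are absent from its other transcripts. *Zbtb16*, the PLZF factor of innate-like T cells, was at 0.916 to 2.76 TPM in the controls and 0.565 to 0.888 TPM in the knockouts (limma log2 difference -0.56, adjusted p = 0.865). *Gpr15*, a homing receptor of the large intestine, was at 0 to 1.24 TPM in the controls and 1.60 to 7.16 TPM in the knockouts (limma log2 difference 1.13, adjusted p = 0.865). The fourth, *Tcrg-C1*, was at 0 to 0.324 TPM in the controls and 0.485 to 1.69 TPM in the knockouts (exact two-sided permutation p = 0.0238, unadjusted) and was under the filter.

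After DSS, 59 of the 75 were above 0 in a library, and 3 did not overlap between the genotypes, against 3.5% of all genes above 0 there; these too are named after their values were seen. *Cd4* was at 0 to 0.17 TPM in the controls and 0.197 to 0.327 TPM in the knockouts (exact two-sided permutation p = 0.0286, the smallest possible, unadjusted). It rested on 4.00 reads in the controls and 19.5 in the knockouts. *Trac* had 0 reads in the 3 DSS controls and 7.00 in the 4 DSS knockouts. *Cd244a*, a receptor of natural killer cells, was at 0.194 to 0.306 TPM in the controls and 0 to 0.164 TPM in the knockouts (exact two-sided permutation p = 0.0571, unadjusted).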
